A study of Homo sapiens with 34 samples.

Results

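Histone marks at 42 genes of DNA replication and the cell cycle were described in KELLY cells, a human neuroblastoma cell line that carries an amplified MYCN gene. The genes were taken as a fixed list of names, and all 42 of 42 were found among 19970 protein-coding genes of the GENCODE annotation of hg38. By their known roles they fell into 8 groups, namely 10 genes that license replication origins, 4 that activate the replicative helicase, 5 that synthesise DNA at the fork, 3 that supply nucleotides, 3 E2F transcription factors, 5 S phase cyclins, kinases and phosphatases, 10 genes of mitotic entry and exit, and 2 proliferation markers. The study profiled 5 histone modifications by ChIP-seq (H3K4me3, H3K27ac, H3K4me2, H3K4me1 and H3K27me3) in cells with a hairpin RNA, switched on by doxycycline, that targets the transcriptional corepressor RUNX1T1. Both groups carried this hairpin construct, and the comparison asked how the marks change when RUNX1T1 is lowered. In one group the cells received the solvent DMSO and in the other they received Doxycycline, each for 72 h, with 3 libraries per mark and treatment and 30 peak lists in all. The cells are from 1 line, the labels do not say which hairpin was used, and an effect of doxycycline itself cannot be told apart from that of the hairpin. Nothing in the labels says that replicates came from separate cultures, so p-values measure the spread between these libraries, which may be technical.

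DNA replication is prepared in G1 phase, when the origin recognition complex, CDC6 and CDT1 load the MCM2 to MCM7 ring onto DNA. In S phase, CDC45 and the GINS complex turn this ring into the active helicase, and polymerases with the PCNA clamp copy the strands. Many of these genes are targets of the E2F factors, which the retinoblastoma protein holds back until cyclin E and CDK2 act, whereas many mitotic genes are repressed outside G2 and M phase by the DREAM complex at CHR elements. H3K4me3 and H3K27ac mark active promoters, H3K4me2 and H3K4me1 mark promoters, their flanks and enhancers, and H3K27me3 marks regions silenced by Polycomb.

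Short words known for E2F and cell cycle control occur in part of the promoters of these genes. RefSeq promoter sequences (GRCh38.p14, 250 bases before to 50 bases after the start) matched 37 of the 42 genes. An E2F word (TTTCCCGC, TTTCGCGC, TTTGCCGC or TTTGGCGC, either strand) was present in 18 of the 37 promoters (48.6%), against 4.50% of 15316 promoters of protein-coding genes. It was present in 17 of the 26 promoters of the replication, nucleotide, E2F and S phase genes (65.4%) and in 1 of the 9 promoters of mitotic entry and exit (11.1%), that of CDK1. The CHR word TTTGAA was present in 8 of the 37 (21.6%, against 12.1% of all promoters) and in 4 of the 9 mitotic ones (44.4%). Outside the 42 genes, an E2F word was present in 23.5% of 34 promoters of other replication genes. A CHR word was present in 75% of 28 promoters of other mitosis genes. The CCAAT box, CCAAT, was present in 27 of the 37 (73.0%, against 36.6%), and the E-box CACGTG, a word that MYC and MYCN can bind, in 4 of the 37 (10.8%, against 8.88%). Of the 37 promoters, 35 (94.6%) had over 50% G and C with a ratio of observed to expected CpG over 0.6, against 64.0% of all promoters. These are matches of letters and were not tested as binding sites. The 6 promoters below stand for the findings that follow: MCM6 had H3K4me3 and H3K27ac but hardly any H3K4me1, CDC6 lay in the widest H3K27ac domain, E2F3 had the highest H3K27ac rank, POLA1 had low ranks in 3 marks, CDC20 is a mitotic promoter with CHR words, and TOP2A had the smallest p in the comparison of treatments. Capitals mark the E2F, CHR and CCAAT words on either strand, and overlapping words run together (the E2F words overlap in MCM6).
MCM6 (chr2:135876394-135876693, minus strand): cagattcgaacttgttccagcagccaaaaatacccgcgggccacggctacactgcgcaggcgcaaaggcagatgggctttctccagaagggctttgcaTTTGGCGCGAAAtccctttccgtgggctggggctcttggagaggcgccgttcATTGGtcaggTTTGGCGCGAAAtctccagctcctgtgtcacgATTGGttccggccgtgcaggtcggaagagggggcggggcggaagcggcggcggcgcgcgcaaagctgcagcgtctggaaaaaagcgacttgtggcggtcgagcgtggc
CDC6 (chr17:40287629-40287928, plus strand): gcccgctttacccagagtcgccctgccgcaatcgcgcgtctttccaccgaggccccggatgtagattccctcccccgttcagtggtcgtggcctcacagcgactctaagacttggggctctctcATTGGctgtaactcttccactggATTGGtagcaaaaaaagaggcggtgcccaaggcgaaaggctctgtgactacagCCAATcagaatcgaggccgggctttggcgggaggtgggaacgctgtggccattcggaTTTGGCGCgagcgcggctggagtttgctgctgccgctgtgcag
E2F3 (chr6:20401629-20401928, plus strand): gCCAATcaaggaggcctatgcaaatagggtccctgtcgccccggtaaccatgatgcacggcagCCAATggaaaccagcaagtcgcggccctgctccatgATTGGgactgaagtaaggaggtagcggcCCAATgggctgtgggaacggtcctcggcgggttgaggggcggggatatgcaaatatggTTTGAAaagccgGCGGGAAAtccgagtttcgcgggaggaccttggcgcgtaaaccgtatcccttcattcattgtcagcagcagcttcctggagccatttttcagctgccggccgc
POLA1 (chrX:24693668-24693967, plus strand): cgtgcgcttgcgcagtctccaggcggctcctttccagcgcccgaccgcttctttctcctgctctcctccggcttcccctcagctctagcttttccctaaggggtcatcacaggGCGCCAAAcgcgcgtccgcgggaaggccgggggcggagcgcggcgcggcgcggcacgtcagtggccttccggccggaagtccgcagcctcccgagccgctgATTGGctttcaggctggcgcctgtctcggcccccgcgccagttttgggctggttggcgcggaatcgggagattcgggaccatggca
CDC20 (chr1:43358731-43359030, plus strand): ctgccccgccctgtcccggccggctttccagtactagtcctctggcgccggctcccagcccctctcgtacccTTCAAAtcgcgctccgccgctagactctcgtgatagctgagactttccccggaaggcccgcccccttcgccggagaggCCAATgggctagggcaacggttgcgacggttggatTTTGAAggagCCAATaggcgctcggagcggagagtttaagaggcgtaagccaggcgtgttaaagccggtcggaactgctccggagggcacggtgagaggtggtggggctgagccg
TOP2A (chr17:40417847-40418146, minus strand): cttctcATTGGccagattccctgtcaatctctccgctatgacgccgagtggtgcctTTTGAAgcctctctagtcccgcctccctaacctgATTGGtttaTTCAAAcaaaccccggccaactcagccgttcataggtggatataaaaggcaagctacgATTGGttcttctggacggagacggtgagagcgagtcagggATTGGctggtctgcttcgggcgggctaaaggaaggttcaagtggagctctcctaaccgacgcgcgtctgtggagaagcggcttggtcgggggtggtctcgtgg

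All 42 promoters carried H3K4me3 and H3K27ac in every library, and none carried a stable H3K27me3 peak. A promoter was counted as marked when a called peak overlapped the 1 kb on either side of any annotated start site. H3K4me3 peaks were present at 42 of 42 genes in all 6 libraries, against 71.9% of the 19970 genes. H3K27ac peaks were likewise present at 42 of 42, against 64.2%. H3K4me2 peaks were present in all 6 libraries at 41 of 42, against 71.8%, and POLA1, the catalytic subunit of the primase-bound polymerase, lacked a peak in 1 DMSO library. Together the 3 marks were present in all 6 libraries at 41 genes (97.6%), against 61.4% of all genes. H3K4me1 was less regular, with a peak in all 6 libraries at 30 of 42, against 61.4%. H3K27me3 peaks were present in all 6 libraries at 0 of 42, against 20.1% of all genes, and in any library at 35.6% of all genes. The only H3K27me3 promoter peak among the 42 genes lay at CCNB1, which encodes cyclin B1, in DMSO replicate 3, with a width of 105 bp, a fold enrichment (the ratio of ChIP signal to local input) of 2.76 and a −log10 q-value of 1.76.

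**Figure D1:**
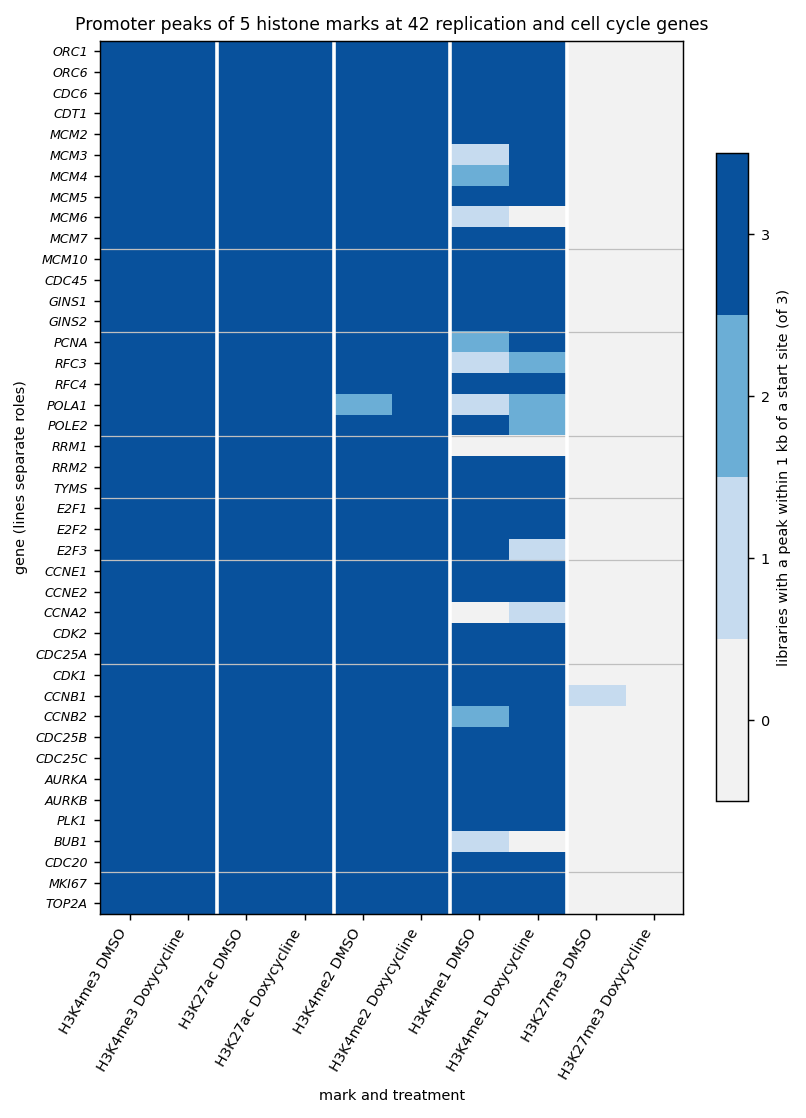
Number of libraries with a promoter peak for each of the 42 genes, by mark, in DMSO (of 3) and Doxycycline (of 3), with genes ordered by role. H3K4me3 and H3K27ac were present in 3 of 3 libraries of both treatments at all 42 genes, H3K4me1 varied between genes, and H3K27me3 was absent except in 1 DMSO library at CCNB1.

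The 12 genes that lacked an H3K4me1 promoter peak in at least 1 library came from 6 of the 8 roles. RRM1, the large subunit of ribonucleotide reductase, had no H3K4me1 promoter peak in any of the 6 libraries. CCNA2 (cyclin A2) had one only in 1 Doxycycline library, and MCM6 and BUB1, a kinase of the spindle checkpoint, only in 1 DMSO library each. POLA1 and RFC3, a subunit of the clamp loader, each had a peak in 1 DMSO and 2 Doxycycline libraries, and MCM3 in 1 and 3. MCM4, PCNA and CCNB2 (cyclin B2) each had a peak in 2 DMSO and 3 Doxycycline libraries. POLE2, a subunit of the leading strand polymerase, had it in 3 and 2, and E2F3 in 3 and 1. Per library, 40, 33 and 34 of the 42 genes carried H3K4me1 in DMSO and 38, 37 and 35 in Doxycycline, so the counts overlapped. No gene of the 42 had a peak of any mark in 3 of 3 libraries of one treatment and 0 of 3 of the other. Among all genes such a split was seen in 0.130% for H3K4me3, 0.330% for H3K27ac, 0.0300% for H3K4me2, 0.315% for H3K4me1 and 0.190% for H3K27me3. A missing peak means only that none was called at the depth of that library.

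Depth differed between the treatments. Peaks were called at a depth of 71.9 to 81.1 M reads in DMSO and 57.0 to 63.4 M in Doxycycline, which did not overlap, so treatment and depth cannot be told apart. The H3K27me3 libraries of DMSO replicates 2 and 3 and Doxycycline replicate 3 had estimated fragments of 105 to 112 bp, against 256 to 280 bp in the other 3. Of the neuroblastoma markers, GATA3, HAND2, ISL1 and the catecholamine enzymes TH and DBH carried H3K4me3 and H3K27ac in all 6 libraries, and HAND2 had an H3K4me2 promoter peak in 0 of 3 DMSO and 3 of 3 Doxycycline libraries. Of 10 markers of other cell types, 3 carried H3K4me3, 1 carried H3K27ac (EPCAM) and 6 carried H3K27me3 in all 6 libraries. The RUNX1T1 promoter carried the 4 active marks in 3 of 3 libraries of both treatments and no H3K27me3, which does not check the knockdown, since a hairpin acts on the transcript.

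Within the lists, the promoters of the 42 genes ranked above the middle for H3K4me3 and H3K27ac and near it for H3K4me2 and H3K4me1. The fold enrichment of the strongest promoter peak was turned into a percentile among all protein-coding promoters with a peak in the same list and averaged over the 6 libraries. The median percentile of the 42 genes was 63.4 for H3K4me3, against 55.0 for all genes with the mark in all 6 libraries, and 35 genes lay above 50. For H3K27ac it was 64.9 against 53.3, with 33 genes above 50. For H3K4me2 it was 47.9 against 53.3, with 19 above 50, and for H3K4me1 it was 50.8 against 53.7, with 15 of 30 above 50. The marked stretch was wider than at other genes for H3K27ac, with a median of 3556 bp against 2608 bp, and for H3K4me3, with 2868 bp against 2341 bp. The widths were 2876 bp against 2416 bp for H3K4me2 and 3085 bp against 2646 bp for H3K4me1. These comparisons with all genes are descriptions without a test, and the genes differ in their number of start sites and so in the length searched.

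**Figure D2:**
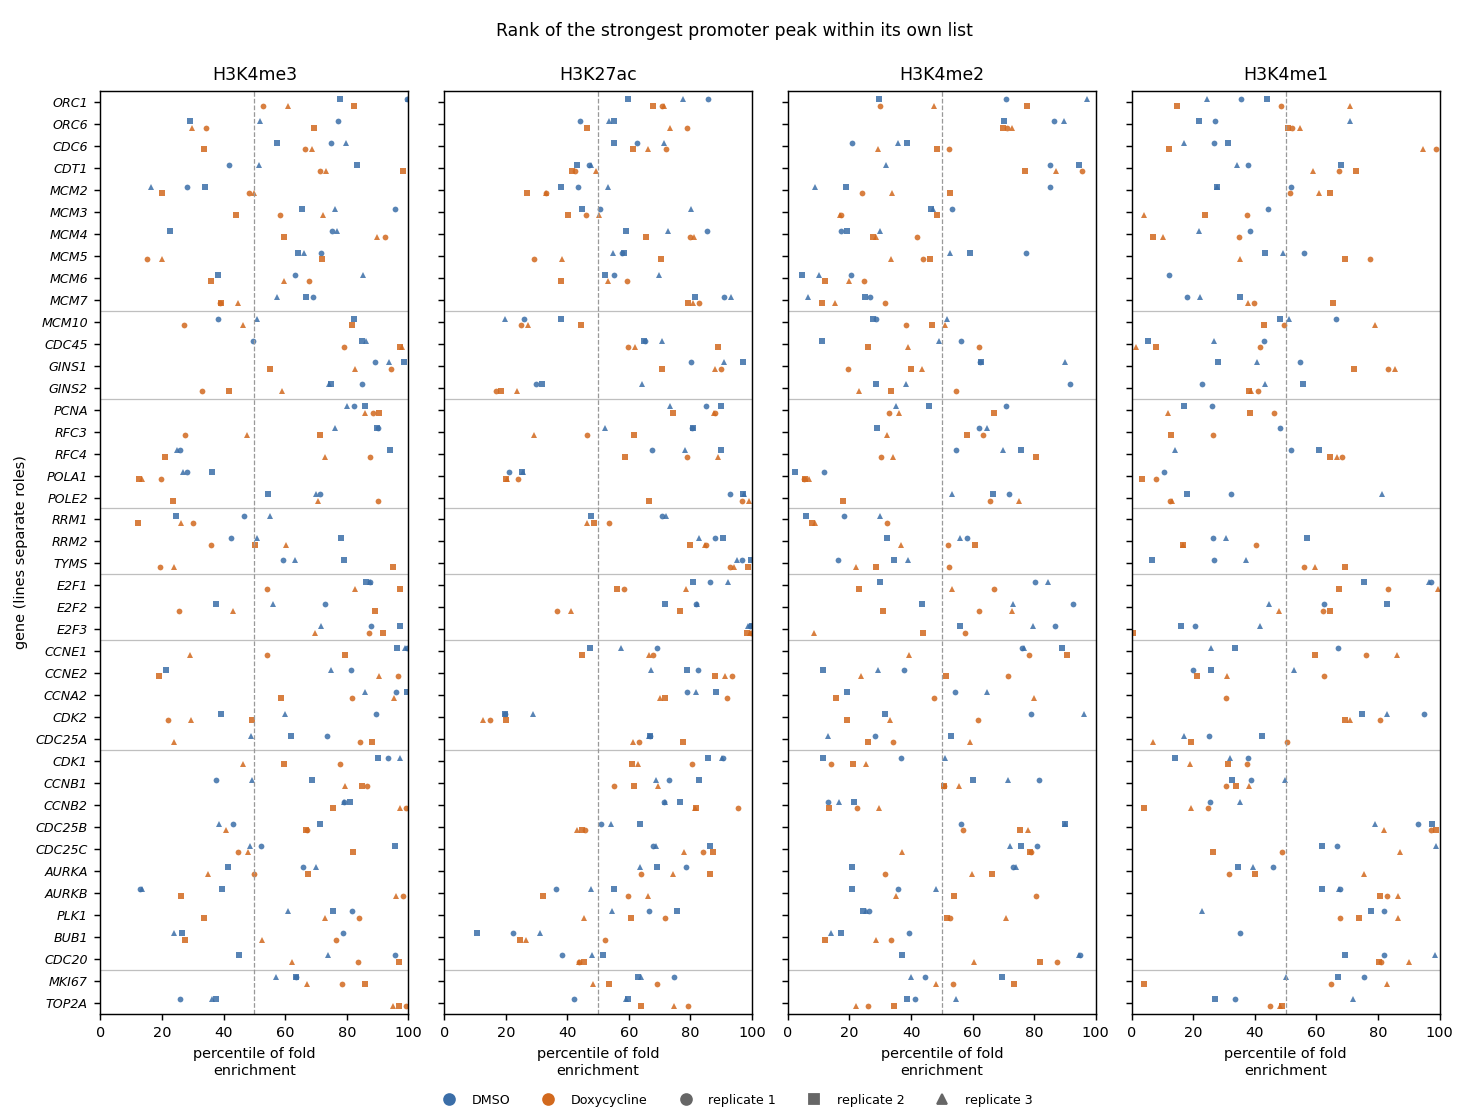
Percentile of the fold enrichment of the strongest promoter peak within its own list (horizontal axis, 0 to 100, dashed line at 50) for each of the 42 genes in each library with a peak, by mark, coloured by treatment, with a symbol per replicate and lines between roles. E2F3 and TYMS lie at the right for H3K27ac in all 6 libraries, POLA1 lies at the left for H3K4me3, H3K27ac and H3K4me2, and most other genes spread widely between libraries.

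Among the 10 licensing genes, the percentile ranged from 32.8 to 78.8 (median 60.9) for H3K4me3 and from 38.0 to 84.7 (median 56.6) for H3K27ac. ORC1, the largest subunit of the origin recognition complex, had the highest H3K4me3 percentile of this group, with fold enrichments of 60.6, 48.7 and 46.7 in DMSO and 36.6, 48.5 and 23.5 in Doxycycline. The lowest Doxycycline value lay well under all others, and the groups overlapped. CDT1, which helps to load the MCM ring, had the highest H3K4me2 percentile of all 42 genes (78.5), followed by ORC6, the smallest subunit of the origin recognition complex (76.7). MCM6, a subunit of the helicase ring, had the lowest H3K4me2 percentile among the genes with this mark in all 6 libraries (15.3), with fold enrichments of 9.51, 4.46 and 4.40 in DMSO and 14.1, 5.81 and 8.08 in Doxycycline. MCM6 was thus low in H3K4me2 in every library and also without an H3K4me1 promoter peak in 5 of 6.

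CDC6, the loader of the MCM ring, lay in the widest H3K27ac domain of the 42 genes, with a mean of 30565 bp. The peaks that touched its promoters summed to 31830, 30673 and 15538 bp in DMSO and 32668, 39851 and 32828 bp in Doxycycline. DMSO replicate 3 was the narrowest and Doxycycline replicate 2 the widest. The gene spans 16779 bp (chromosome 17, 40287879 to 40304657, plus strand), and in all 6 libraries the domain ran on into the neighbouring RARA, which encodes a retinoic acid receptor, so its width is not that of CDC6 alone. In Doxycycline replicate 2 the peaks reached from 40286107 to 40335022. For H3K4me1, a peak of 27425 bp reached RARA in Doxycycline replicate 1, as did a peak of 26405 bp in replicate 3, whereas the peaks of Doxycycline replicate 2 and the 3 DMSO libraries ended before it.

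The helicase activators ranked high in H3K4me3, from 54.4 to 85.6 (median 71.9), and from 30.1 to 86.1 (median 49.7) in H3K27ac. GINS1, a subunit of the GINS complex whose window also holds the start of ABHD12, had the second highest H3K4me3 percentile of the 42 genes (85.6), with fold enrichments of 45.9, 64.1 and 32.4 in DMSO and 53.6, 37.9 and 28.3 in Doxycycline. The third library of each treatment was the lowest, as it was for the median of the 42 genes, and the groups overlapped. CDC45, which completes the active helicase, had the lowest H3K4me1 percentile of the 30 genes with that mark in all 6 libraries (21.1). At the fork, the percentiles ranged from 22.8 to 85.5 (median 63.4) for H3K4me3 and from 22.7 to 91.5 (median 77.0) for H3K27ac. POLA1 had the lowest H3K4me3 percentile of the 42 genes (22.8), the second lowest H3K27ac percentile (22.7) and the narrowest H3K4me3 domain (1477 bp on average). Its H3K4me3 fold enrichments were 26.3, 33.1 and 16.9 in DMSO and 24.8, 18.4 and 12.5 in Doxycycline. The values of the treatments overlapped. Its H3K4me2 percentile, over the 5 libraries with a peak, was 6.43. POLA1 spans chromosome X from 24693873 to 24996986 on the plus strand.

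The highest H3K27ac ranks of the 42 genes were those of a nucleotide gene, TYMS, and of an E2F factor, E2F3. TYMS, the thymidylate synthase, had H3K27ac fold enrichments of 13.2, 15.3 and 7.91 in DMSO and 16.3, 16.2 and 9.31 in Doxycycline, a percentile of 96.2. E2F3, an activating E2F factor, had 16.0, 15.9 and 9.02 in DMSO and 22.8, 15.8 and 11.6 in Doxycycline, the highest percentile of the 42 genes (99.2). For both genes replicate 3 was the lowest of each treatment, as it was for the median of the 42 genes, and the groups overlapped. RRM1 had the second lowest H3K4me3 percentile (32.5) and the second lowest H3K4me2 percentile among genes with this mark in all 6 libraries (17.1), and it lacked an H3K4me1 promoter peak in every library. H3K4me1 peaks covered 6.03% of its body in DMSO replicate 1 and 4.03% in Doxycycline replicate 1. E2F1, the founding activating E2F factor, had the second highest H3K4me1 percentile (86.5).

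Among the S phase regulators, CCNA2 had the highest H3K4me3 percentile of the 42 genes (86.2), with fold enrichments of 51.4, 67.8 and 29.0 in DMSO and 46.0, 39.1 and 34.1 in Doxycycline. The groups overlapped. CDK2, the kinase partner of cyclins E and A, had the lowest H3K27ac percentile (19.3), with fold enrichments of 4.43, 4.04 and 3.91 in DMSO and 4.71, 4.95 and 3.46 in Doxycycline. The treatments overlapped at CDK2, whose window also holds the start of PMEL. CDC25A, a phosphatase that activates CDK2, had the second lowest H3K4me1 percentile of the 30 genes with that mark in all 6 libraries (26.9). Among the mitotic genes, CDC25B, a phosphatase that activates CDK1, had the highest H3K4me1 percentile (91.4), the widest H3K4me3 domain (6279 bp on average) and the second widest H3K27ac domain (16167 bp). Its H3K27ac domain touched CENPB in all 6 libraries and SPEF1 in 4. BUB1 had the narrowest H3K27ac domain (1287 bp), with 1317, 1271 and 1124 bp in DMSO and 1290, 1429 and 1290 bp in Doxycycline, which overlapped.

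**Figure D3:**
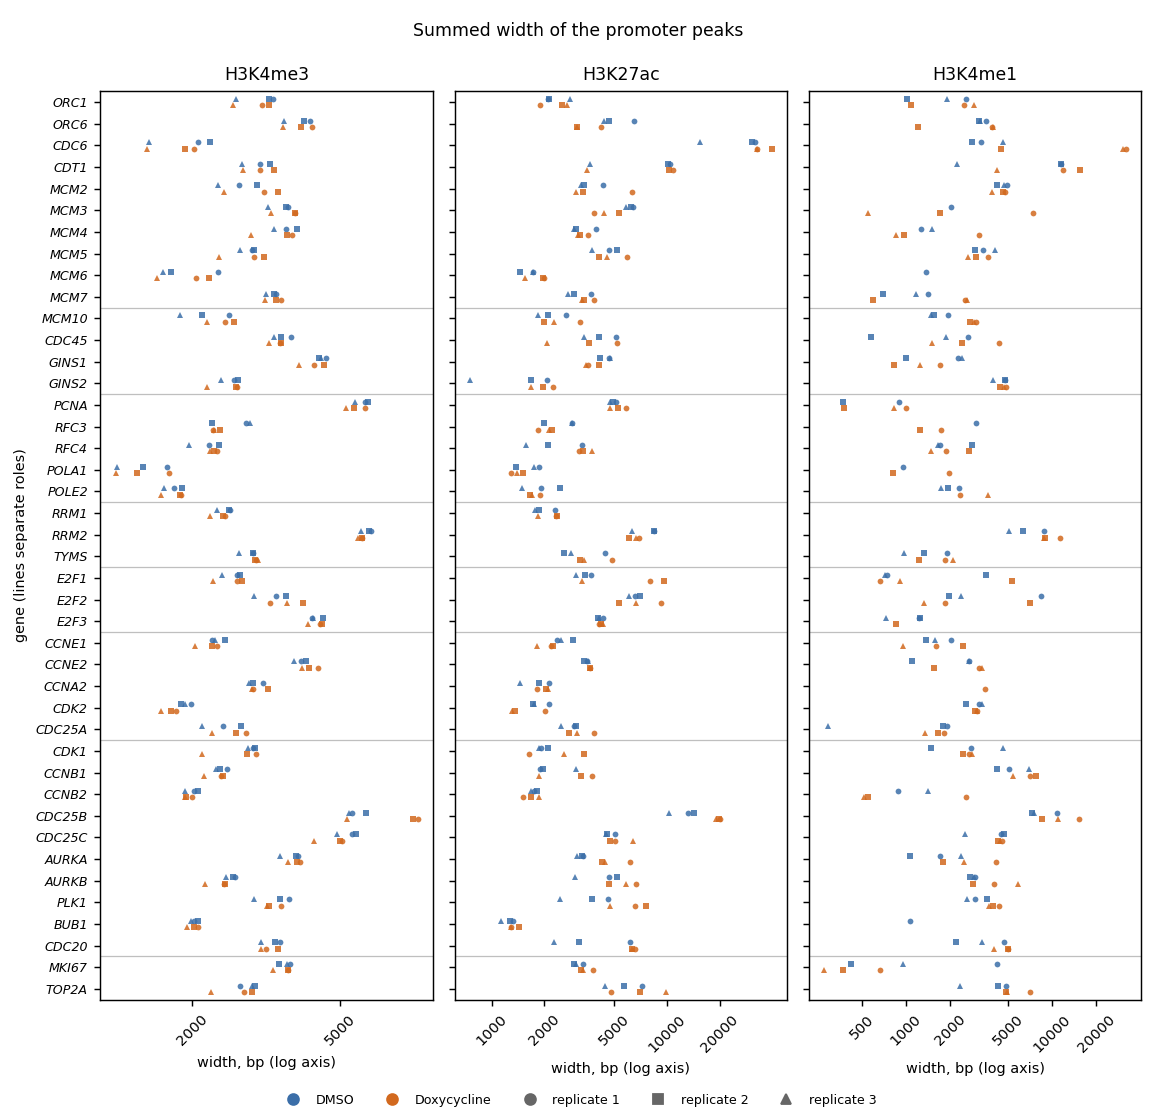
Summed length of the peaks that overlap the promoter (bp, log axis) in each library with a peak for H3K4me3, H3K27ac and H3K4me1 at each of the 42 genes, coloured by treatment, with a symbol per replicate. The widest H3K27ac domain lies at CDC6 and the narrowest at BUB1 on average, and CDC25B, PLK1 and AURKA are wider for H3K27ac in all 3 Doxycycline libraries than in all 3 DMSO libraries, whereas ORC6 is narrower.

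Doxycycline was then compared with DMSO at each promoter, and no gene of the 42 passed the test for H3K4me3. Fold enrichment was compared with limma on a log2 scale over 14349 promoters with a peak in all 6 libraries, after quantile normalisation, which gives every list the same distribution and so compares ranks. Of the 42 genes 0 were called at an adjusted p of 0.05, against 0.0836% of all promoters (12), and 0 of all promoters were called with a replicate block, a term for libraries of the same replicate number. At an unadjusted p of 0.05, 9 of the 42 passed (2 higher and 7 lower in Doxycycline), or 21.4% against 14.4% of all promoters. The median difference over the 42 genes was -0.09 log2 units, beside 0.00 over all promoters, whose 5th to 95th percentiles ran from -0.51 to 0.51.

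The smallest p belonged to TOP2A, the topoisomerase that untangles sister DNA (chromosome 17, 40388525 to 40417896, minus strand; its promoter sequence is given above). Its H3K4me3 fold enrichments were 25.4, 33.5 and 18.9 in DMSO and 61.8, 59.8 and 33.9 in Doxycycline. Every Doxycycline value lay above every DMSO value, the closest being 33.9 and 33.5, and the share of all promoters with such a split was not counted. Within the lists its percentile was 25.7, 37.4 and 36.2 in DMSO and 99.1, 97.1 and 95.2 in Doxycycline. The pileup of the same peaks, the number of fragments stacked at the summit, was 549, 518 and 412 in DMSO and 467, 378 and 244 in Doxycycline, so the ratio to the input was higher where the stacked fragments were not. The median pileup of all promoters was 458, 419 and 312 in DMSO and 394, 338 and 220 in Doxycycline, so the fall was not particular to TOP2A. The limma difference was 0.98 log2 units (SE 0.18, adjusted p = 0.0727) by fold enrichment, and it turned to -0.11 by pileup. AURKB, a kinase of chromosome segregation, had fold enrichments of 17.0, 34.3 and 12.2 in DMSO and 59.6, 27.6 and 34.8 in Doxycycline, with overlap between the groups. Its difference was 0.99 log2 units (SE 0.29, adjusted p = 0.147), and -0.057 by pileup. CCNE1 (cyclin E1) had 62.1, 60.6 and 38.4 in DMSO and 37.0, 47.1 and 17.2 in Doxycycline. The Doxycycline values were the lower ones, with overlap at DMSO replicate 3, and the difference was -0.77 log2 units (SE 0.21, adjusted p = 0.126). Without Doxycycline replicate 2 the count of called genes rose to 4 of 42 (AURKB, TOP2A, CCNE1 and MCM5) beside 220 of 14355 promoters in the same fit. The Doxycycline libraries left in that fit, replicates 1 and 3, list inputs of equal read totals (63.4 M). They may share an input and so may not be independent.

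**Figure D4:**
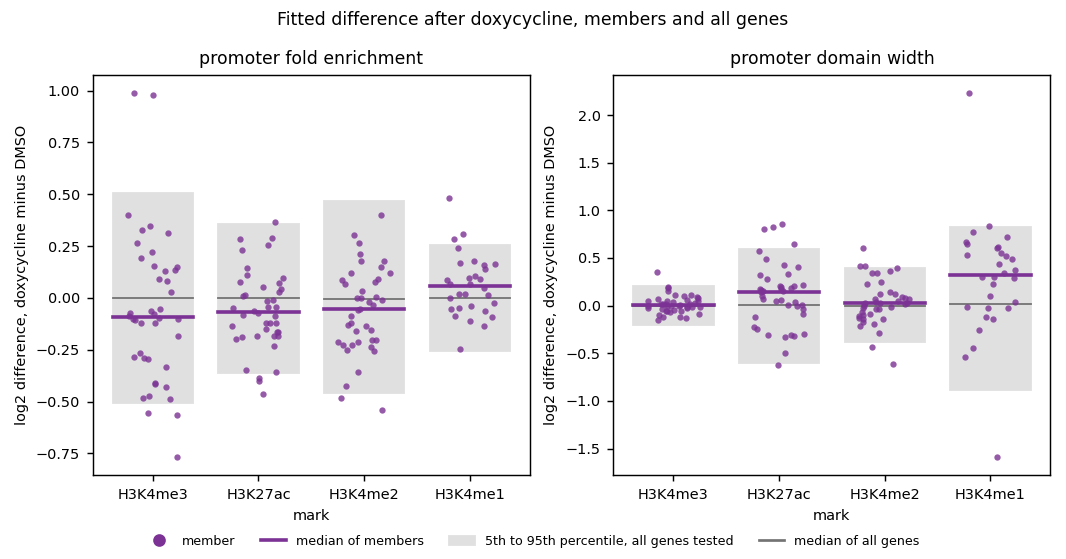
Fitted difference, Doxycycline minus DMSO (log2 units after quantile normalisation), in promoter fold enrichment (left) and domain width (right) by mark, where each point is a gene of the 42 with a peak in all 6 libraries, the purple line is their median, the grey band spans the 5th to 95th percentile of all genes tested and the grey line is their median. TOP2A and AURKB lie above the band for H3K4me3 fold enrichment, and CCNE1, ORC1 and MCM5 lie below it. The direction of TOP2A and of AURKB turns when pileup is used, and no gene of the 42 was called.

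The width of the H3K4me3 domain hardly differed at these promoters. Of the 42 genes 0 were called, against 0.453% of all promoters (65, or 3 with a replicate block). At an unadjusted p of 0.05, 2 passed, or 4.76% against 11.8% of all promoters. The median difference was 0.00 log2 units. CDC25C, another phosphatase that activates CDK1, measured 5391, 5525 and 4899 bp in DMSO and 5051, 4979 and 4241 bp in Doxycycline. The Doxycycline domains were mostly the shorter ones, with overlap, and the difference was -0.13 log2 units (SE 0.04, adjusted p = 0.296). CDC25B measured 5382, 5862 and 5276 bp in DMSO and 8068, 7860 and 5224 bp in Doxycycline, so Doxycycline replicate 3 fell below the DMSO range whereas the other two lay above it. The difference was 0.35 log2 units (SE 0.11, adjusted p = 0.303), and without Doxycycline replicate 3 it was called, 1 of 42, beside 92 of 14462 promoters in the same fit. MCM10, which helps to fire licensed origins, measured 2508, 2131 and 1853 bp and 2458, 2586 and 2192 bp, with overlap, and a difference of 0.19 log2 units (SE 0.08, adjusted p = 0.433).

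For H3K27ac, 251 of 12827 promoters were called by fold enrichment (1.96%) and 0 of the 42. At an unadjusted p of 0.05, 7 of the 42 passed (2 higher, 5 lower), or 16.7% against 17.0% of all promoters, and the median difference was -0.07 log2 units. Without normalisation the median of all promoters was 0.31 log2 units higher in Doxycycline, so differences are relative to that shift. GINS2, a subunit of the GINS complex, had fold enrichments of 5.45, 5.02 and 5.48 in DMSO and 5.10, 4.72 and 4.39 in Doxycycline. On the deposited scale the groups overlapped, and the normalised difference was -0.46 log2 units (SE 0.16, adjusted p = 0.157). CDK1, the mitotic kinase, had 11.4, 9.44 and 7.21 in DMSO and 13.3, 8.71 and 6.57 in Doxycycline, and a difference of -0.35 log2 units (SE 0.12, adjusted p = 0.162). E2F1 had 10.5, 8.74 and 7.50 in DMSO and 10.3, 8.29 and 7.55 in Doxycycline, and a difference of -0.36 log2 units (SE 0.13, adjusted p = 0.176). The deposited values of CDK1 and E2F1 overlapped between the treatments as well. Without Doxycycline replicate 2, 1 of the 42 was called, E2F2, an activating E2F factor, beside 171 of 12867 promoters in the same fit.

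The width of the H3K27ac domain did not pass the test at any of the 42 genes. By limma 0 of the 42 genes were called, against 0.0468% of all promoters (6), and 7 passed an unadjusted p of 0.05 (5 wider, 2 narrower), or 16.7% against 9.38%. The median difference was 0.15 log2 units, beside 0.01 over all promoters. In 6 of the 42 genes (14.3%) every Doxycycline library was wider than every DMSO library, a pattern seen in 6.0% of all promoters (769). These were CDC6, CCNE2 (cyclin E2), CDC25B, AURKA, PLK1 and CDC20. In 4 (9.52%) every Doxycycline library was narrower, against 6.74% of all promoters, namely ORC6, MCM3, GINS1 and CCNE1. The genes of both lists were picked out after their values were seen, and 3 libraries against 3 cannot give an exact two-sided permutation p below 0.1.

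AURKA, a kinase of centrosomes and spindle assembly, had H3K27ac widths of 3340, 3293 and 3085 bp in DMSO and 6170, 4292 and 4454 bp in Doxycycline, and a difference of 0.57 log2 units (SE 0.15, adjusted p = 0.271). PLK1, a kinase of mitotic entry, had 4592, 3747 and 2445 bp in DMSO and 6617, 7559 and 4757 bp in Doxycycline, and a difference of 0.81 log2 units (SE 0.21, adjusted p = 0.272). The lowest Doxycycline width of PLK1 lay just above its highest DMSO width. CDC20, the activator of the anaphase-promoting complex, measured 6187, 3139 and 2274 bp in DMSO and 6582, 6338 and 6311 bp in Doxycycline. CDC25B measured 13251, 14327 and 10317 bp and 20204, 19783 and 19121 bp. The 3 Doxycycline values of CDC25B and of CDC20 stood close together, whereas the DMSO values were spread more widely. ORC6 went the other way, with 6516, 4673 and 4404 bp in DMSO and 4195, 3077 and 3077 bp in Doxycycline and a difference of -0.62 log2 units (SE 0.15, adjusted p = 0.257). CCNE2 measured 3517, 3385 and 3530 bp and 3633, 3636 and 3625 bp, so that its groups were apart by only a small step.

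H3K4me2 had no called promoter at all. By limma 0 of 41 genes were called by fold enrichment and 0 by width, against 0% of 14338 promoters in both. At an unadjusted p of 0.05, 2 (both lower) and 1 (wider) passed, or 4.88% and 2.44%, against 9.75% and 3.67% of all promoters. E2F3 had fold enrichments of 16.6, 9.25 and 7.73 in DMSO and 21.2, 8.57 and 6.31 in Doxycycline, and a normalised difference of -0.54 log2 units (SE 0.23, adjusted p = 0.480). GINS1 had 13.8, 9.78 and 8.55 and 12.8, 8.30 and 10.1, with a difference of -0.48 log2 units (SE 0.21, adjusted p = 0.482). PLK1 had 10.3, 7.01 and 5.31 and 20.2, 9.11 and 12.2, with a difference of 0.40 log2 units (SE 0.20, adjusted p = 0.517). In all these genes the first Doxycycline library was the highest of its treatment, as it was for the median of the 42 genes. That order was therefore not particular to E2F3, GINS1 and PLK1. By width, the smallest p belonged to MCM5, a subunit of the helicase ring, with 0.41 log2 units (SE 0.14, adjusted p = 0.998). CDC25B differed by 0.42 log2 units (SE 0.19, adjusted p = 0.998) and AURKB by 0.34 log2 units (SE 0.17, adjusted p = 0.998).

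For H3K4me1, 0 of 30 genes were called by fold enrichment, against 0.00815% of 12270 promoters (1, or 0 with a replicate block), and 0 of 30 by width, against 0.130% (16, or 0 with a replicate block). At an unadjusted p of 0.05, 3 passed by fold enrichment (all higher) and 5 by width (4 wider), or 10% and 16.7%, against 9.67% and 7.58% of all promoters. The median difference was 0.06 log2 units in fold enrichment and 0.32 in width, beside 0.00 and 0.02 over all promoters. GINS1 had fold enrichments of 3.16, 2.42 and 2.41 in DMSO and 4.12, 3.32 and 3.36 in Doxycycline, and a difference of 0.31 log2 units (SE 0.11, adjusted p = 0.343). TYMS had 2.73, 2.12 and 2.38 and 3.41, 3.27 and 2.94, and a difference of 0.28 log2 units (SE 0.11, adjusted p = 0.405). On the deposited scale all Doxycycline values of GINS1 and TYMS lay above their DMSO values. How many of all promoters split in this way was not counted. Without normalisation the median of all promoters was itself higher in Doxycycline for this mark. The deposited value of a typical promoter therefore rose as well. CDC6 had 2.73, 2.46 and 2.20 and 5.94, 2.41 and 3.70, and a difference of 0.48 log2 units (SE 0.17, adjusted p = 0.357) that turned to -0.025 when only canonical start sites were searched. Doxycycline replicates 1 and 3, whose peaks reached RARA, were the high libraries at CDC6, and Doxycycline replicate 2 lay within the DMSO range. When Doxycycline replicate 2 was left out, CDC6 was called, 1 of 31 genes tested, beside 2 of 12699 promoters in the same fit.

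By width, MCM10 had H3K4me1 domains of 1945, 1554 and 1483 bp in DMSO and 3021, 2756 and 2933 bp in Doxycycline. All 3 Doxycycline domains were wider, and the difference was 0.83 log2 units (SE 0.24, adjusted p = 0.546). RRM2, the small subunit of ribonucleotide reductase, had 8855, 6346 and 5082 bp and 11269, 8946 and 8824 bp, with overlap at DMSO replicate 1, and a difference of 0.61 log2 units (SE 0.23, adjusted p = 0.622). CDC6 had 3267, 2839 and 4640 bp and 32160, 4437 and 30765 bp, and a difference of 2.23 log2 units (SE 0.73, adjusted p = 0.578). Every Doxycycline library was wider than every DMSO library in 2 of 30 genes, MCM10 and PLK1, against 4.74% of all promoters, and narrower in 0 of 30, against 5.93%.

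Peaks inside the gene bodies showed that a few of these genes were covered far beyond the start. The body was the gene span without the 1 kb around start sites, and 39 of the 42 genes had at least 2000 bp of it. CDT1 had the largest share covered by H3K4me1 (76.8% on average) and by H3K27ac (73.0%). For H3K27ac the shares at CDT1 were 100, 100 and 8.15% in DMSO and 100, 100 and 29.9% in Doxycycline. Replicate 3 of both treatments was far below the other libraries, and its body is short, at 2490 bp. CCNB1 (76.0%) and PLK1 (47.6%) followed for H3K4me1, and E2F1 (45.7%) and CDC6 (43.2%) for H3K27ac. H3K27me3 was present in the body of 4 of the 39 genes in any library, against 51.7% of 17639 genes. Its largest share lay at GINS1, with 8.76, 1.33 and 1.57% in DMSO and 8.24, 5.71 and 1.61% in Doxycycline. The shares of GINS1 varied as much within a treatment as between them. PLK1 had 0.427% and MCM10 0.136% on average, and POLA1 was the other gene with any.

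By limma, 0 of 36 gene bodies were called for H3K27ac, against 0.136% of 11773 (16), and 0 of 36 for H3K4me1, against 0.112% of 15147 (17, or 0 with a replicate block). At an unadjusted p of 0.05, 5 (4 higher) and 6 (5 higher) passed, or 13.9% and 16.7%, against 11.7% and 11.2% of all gene bodies. The median difference over the genes was 1.19 percentage points for H3K27ac and 1.60 for H3K4me1, beside -0.01 and -0.06 over all genes. E2F1 was covered by H3K27ac over 34.6, 30.6 and 17.5% of its body in DMSO and 76.0, 83.3 and 32.1% in Doxycycline. Doxycycline replicates 1 and 2 were far higher and replicate 3 lay within the DMSO range, with a difference of 30.9 percentage points (SE 9.35, adjusted p = 0.319). RFC3 was covered over 32.2, 26.9 and 27.9% in DMSO and 12.6, 14.6 and 16.4% in Doxycycline, lower in every Doxycycline library, with a difference of -15.9 percentage points (SE 5.20, adjusted p = 0.358). The share of all gene bodies with such a split was not counted. The smallest p for H3K27ac was that of MCM5, with a difference of 5.05 percentage points (SE 1.18, adjusted p = 0.218), and for H3K4me1 that of MCM3, with 8.69 percentage points (SE 1.72, adjusted p = 0.204). TOP2A followed for H3K4me1, with 15.3, 10.8 and 7.40% in DMSO, 22.6, 13.5 and 19.4% in Doxycycline and a difference of 9.11 percentage points (SE 1.97, adjusted p = 0.228).

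**Figure D5:**
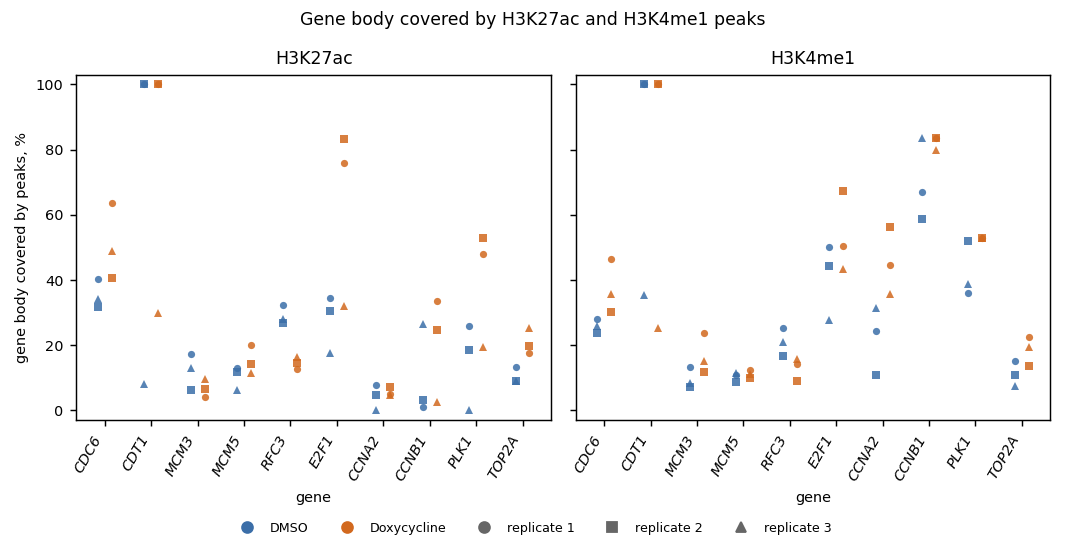
Share of the gene body covered by H3K27ac and H3K4me1 peaks (percent) in each library, by treatment, for 10 of the genes. E2F1 stands higher in 2 Doxycycline libraries for H3K27ac, RFC3 is lower in all 3, and CDT1 and CCNB1 are covered most for H3K4me1.

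Some of these genes share their promoter window with a neighbour. In 13 of the 42 genes (31.0%, against 23.3% of all genes) the promoter window held a start site of another protein-coding gene, such as PRKDC beside MCM4, UFD1 beside CDC45 and CSTF1 beside AURKA. Among the genes ranked above, PRPF38A lay beside ORC1, VPS35 beside ORC6, ABHD12 beside GINS1 and CENPB beside CDC25B. The H3K4me3 domain had a median width of 3742 bp at these 13 and 2517 bp at the other 29 genes. Among all genes the widths were 2711 and 2187 bp. H3K27ac and H3K4me2 had the same order. For H3K4me1 it was reversed, with 2413 and 3511 bp at the genes of the 42 and 2565 and 2683 bp among all genes. A link between neighbours and width was not tested. The marks at such shared promoters cannot be assigned to one of the genes. Genes with and without an E2F word had median H3K27ac percentiles of 66.0 and 62.4 and median H3K4me3 percentiles of 63.4 and 65.1.

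Related genes outside the 42 were not called either. Of 40 other replication genes, 35 other mitosis genes and 16 genes of the E2F, RB and DREAM system, 0 were called by limma in any of the 10 fits. H3K4me3 and H3K27ac were present in all 6 libraries at 40 of 40, 35 of 35 and 16 of 16 promoters. H3K4me1 was present in all 6 libraries at 32, 21 and 15 of them. Their median H3K27ac percentiles were 55.1, 60.4 and 63.8, beside 64.9 for the 42 genes, and their median H3K4me3 percentiles were 60.6, 66.3 and 63.0, beside 63.4. These lists were drawn up with results of the same data known and are given as a description.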

How the data were processed

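The peak lists of 5 histone marks, 3 libraries per mark and treatment, were grouped by the labels, which name 34 samples, 4 of them inputs used only inside the peak calls. The authors aligned reads to hg38 with Bowtie2 and called peaks in each library against an input with MACS2 2.1.1.20160309, per the file headers and the submitters' processing notes. H3K4me1, H3K27ac and H3K27me3 were called in broad mode (q 0.05, linked at q 0.1) and H3K4me2 and H3K4me3 in narrow mode (p 1e-05). The headers give single-ended calls and a tag of 101 bp. Replicates 1 and 3 list inputs of equal read totals in both treatments and may share an input library.

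The deposited pileup is a signal, the fragment coverage of a peak. Fold enrichment, as the authors deposited it, is a ratio of ChIP to local input. For broad peaks both are means over the region. The deposited −log10 q-value was used only as a filter. These values depend on depth and input, and without reads counted over regions no counting interval can be given.

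Promoters were 1 kb on either side of every GENCODE release 44 start site of protein-coding genes on chromosomes 1 to 22 and X, with an overlap of at least 1 bp. Limma 3.58.1 in R 4.3.3 was fitted over all promoters with a peak in all 6 libraries of a mark, or over gene bodies of at least 2000 bp, and p-values were adjusted over all of them (Benjamini-Hochberg, two-sided, 0.05). Python 3.11.15, numpy 2.4.6 and pandas 2.3.3 were used. H3K27me3 was described by presence only. The genes and lists were chosen with earlier results of these data known. Genes named with values were those of smallest p, of highest or lowest mean percentile, of widest or narrowest domain and of largest covered share; others named were chosen after their values were seen.

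Whether same-numbered libraries of the 2 treatments deviate together was checked. The lowest correlation of their deviations was over 0.1 in fold enrichment for H3K4me3 (0.135 to 0.156), H3K27ac (0.182 to 0.232) and H3K4me1 (0.140 to 0.182), in width for H3K4me3 (0.236 to 0.416) and H3K4me1 (0.119 to 0.199) and in gene bodies for H3K4me1 (0.178 to 0.203). It was not so for H3K4me2 or for H3K27ac width and gene bodies. The main differences, SEs and p-values come from fits without a replicate term, also where the correlation was over 0.1. The replicate block was fitted only as an alternative. The alternatives tried were a replicate block, no normalisation, normal scores, pileup, stricter q-values, wider promoters, canonical start sites, a larger overlap and leaving out each library. The result for 1 of the cell type markers is not reported here.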

Additional observations from a re-analysis of the deposited data

How the results depend on the processing

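None of the 42 genes was called by limma in the comparison as reported, and under the alternatives that kept all libraries AURKB alone was called, for H3K27ac by pileup (1 of 42). With the replicate block, 0 genes of the 42 were called in any fit, and the counts over all genes became 0 for H3K4me3 fold enrichment, 3 for H3K4me3 width, 256 for H3K27ac fold enrichment and 0 for H3K27ac width, H3K27ac gene bodies and all H3K4me1 fits. Without normalisation the counts were 0 and 3 for H3K4me3 fold enrichment and width, 6, 13 and 0 for H3K27ac fold enrichment, width and gene bodies, and 2, 0 and 5 for H3K4me1, and the median of all promoters shifted by 0.31 (H3K27ac), 0.46 (H3K4me2) and 0.13 (H3K4me1) log2 units. Normal scores gave 0 (H3K4me3), 109 (H3K27ac) and 0 (H3K4me1) by fold enrichment, and pileup gave 265, 410 and 7. By pileup TOP2A turned to -0.11 and AURKB to -0.057 for H3K4me3, and with canonical start sites CDC6 turned to -0.025 for H3K4me1. The cause was not tested. At q 0.001 or less H3K27ac width gave 47 and gene bodies 30, and H3K4me1 gave 0, 0 and 1 for fold enrichment, width and gene bodies. At q 1e-10 or less fold enrichment gave 7 (H3K4me3), 61 (H3K27ac) and 0 (H3K4me1), width 32 (H3K27ac) and 0 (H3K4me1), and H3K4me1 gene bodies 0. Promoters of 2.5 kb gave 7 for H3K4me3 fold enrichment, 15 for H3K27ac width and 0 for H3K4me1 width. Canonical start sites gave 0 for H3K4me3 fold enrichment, 12 for H3K27ac width and 2 for H3K4me1 fold enrichment, and an overlap of 200 bp gave 31 for H3K27ac width and 0 for both H3K4me1 measures.

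H3K4me1 was present in all 6 libraries at 15 of the 42 genes at q 0.001 (32.5% of all genes) and at 0 at q 1e-10 (1.51%), which left none of the 42 to test for H3K4me1. Peaks in 3 of 3 libraries of one treatment only fell to 40 promoters (H3K27ac) and 5 (H3K4me1) at q 1e-10, and for H3K27me3 to 2 at q 0.001 and 0 at q 1e-10. Among the 42, such a split appeared for H3K4me1 at CDC25A with canonical start sites (1) or an overlap of 200 bp (1), and for H3K27me3 at AURKB and RFC4 with 2.5 kb (2). The shares of all genes under these settings are not given here, so these counts are no result about the 42 genes.

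Leaving out each library in turn gave 0 to 220 called promoters by fold enrichment for H3K4me3, 30 to 297 for H3K27ac, 0 to 1 for H3K4me2 and 0 to 2 for H3K4me1, and 16 to 92, 0 to 30, 0 to 0 and 0 to 0 by width. Gene bodies gave 0 to 17 for H3K27ac and 0 to 7 for H3K4me1. Of the 42 genes, 0 to 4 were called for H3K4me3 fold enrichment, 0 to 1 each for H3K27ac (E2F2) and H3K4me1 (CDC6) fold enrichment, all without Doxycycline replicate 2, and 0 to 1 for H3K4me3 width (CDC25B, without Doxycycline replicate 3). In the fits without Doxycycline replicate 2, the Doxycycline libraries left may share an input. One-sided presence was counted at 34 to 55 promoters for H3K4me3, 92 to 130 for H3K27ac, 8 to 89 for H3K4me2, 113 to 225 for H3K4me1 and 54 to 216 for H3K27me3, and at 0 to 1 of the 42 genes for H3K4me1 (MCM3 without DMSO replicate 1, E2F3 without Doxycycline replicate 2). Each named difference of a single gene was refitted under each alternative, and of these refits 373 kept the direction and side of the threshold, 5 passed the threshold and 3 turned, some of them for the same gene.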
